A study of Mus musculus with 20 samples.

Results

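Decorin (Dcn) and asporin (Aspn) are secreted proteins of the small leucine-rich proteoglycan family, and the levels of both differed strongly between stages of differentiation in cultured mouse myoblasts. They are described here with 6 further members of the family, biglycan (Bgn), lumican (Lum), fibromodulin (Fmod), osteoglycin (Ogn), osteomodulin (Omd) and prolargin (Prelp). The 8 genes were taken by gene symbol from 20193 genes. Dcn and Aspn were selected on their array values in these same groups, because those change strongly, so their values are a description with no test. The other 6 were taken for their family and were tested.

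Small leucine-rich proteoglycans have a core of leucine-rich repeats that binds collagen fibrils, and several carry chondroitin, dermatan or keratan sulfate chains. They set the width and spacing of fibrils and hold growth factors such as TGF-beta, myostatin and bone morphogenetic proteins in the matrix. In skeletal muscle decorin lies in the connective tissue around fibres and biglycan is linked to the dystrophin complex. Class I holds decorin, biglycan and asporin, class II fibromodulin, lumican, prolargin and osteomodulin, and class III osteoglycin.

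RNA was hybridised to Affymetrix arrays from C2C12, a mouse myoblast cell line that fuses into myotubes when serum is lowered. In the knockdown groups, cells received siMyolinc.1, siMyolinc.2 or siMyolinc.3, each directed at the long noncoding RNA Myolinc, or a scramble siRNA (siScr), at 10 nM with RNAiMax, and were collected at day 2 of differentiation in 2% horse serum, which began 24 h after transfection. The time course used untransfected cells at Undiff (day 0, growth medium with 20% FBS), Day_1 and Day_2. All groups are the same line and had 2 arrays each, called biological replicates in the labels. Whether the pairs came from separate cultures is not said, so p-values measure the spread between these arrays. Myolinc itself was not analysed here, so the depth of knockdown is not reported.

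The values form 2 sets that were summarised separately, a scramble set (siMyolinc and siScr, 8 arrays) and a time-course set (siMyolinc, Undiff, Day_1 and Day_2, 12 arrays), and levels are compared only within a set. The same 6 siMyolinc hybridisations appear in both, which leaves 14 distinct arrays. Between the replicates of a group, Pearson's r across genes was 0.9959 to 0.9987. The C2C12 label was checked on 12 myoblast and myotube markers, of which none lay in the lowest 25% of genes on every array of a set. Ptprc, Emr1 and Lyz2 of 6 macrophage markers, Adipoq and Fabp4 of 6 adipocyte markers and Ibsp of 9 bone and cartilage markers did lie there on every array of both sets, as did Fap of 13 fibroblast and tendon markers. Of 5 endothelial markers none lay there on every array of a set. Most of the fibroblast and tendon, bone and cartilage, and adipocyte markers did not either. The check therefore does not separate myoblasts from endothelial cells, fibroblasts or those other cell types. A bulk array cannot tell fewer cells of a type from less RNA per cell.

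Among the members Bgn and Ogn gave the highest signals, and Lum and Omd the lowest. As a percentile among the 20193 genes, averaged per group, Bgn lay at or above 99.3 and Ogn between 96.5 and 99.2. Fmod lay between 28.9 and 31.6 and Prelp between 29.1 and 39.3. Lum lay between 5.59 and 7.95 and Omd between 7.68 and 18.8, where a signal may hold little beyond background, and the files give no detection call. These percentiles rank probe signals, which are not corrected for probe affinity between genes.

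Dcn was higher on each later day of differentiation. Its log2 level was 6.83 and 6.89 on the Undiff arrays, 9.29 and 9.51 at Day_1, and 11.82 and 11.96 at Day_2. The 3 groups did not overlap, and the step was about equal over each day. The difference was 2.54 ± 0.08 log2 (standard error, as for every ± below) for Day_1 minus Undiff, 2.49 ± 0.08 for Day_2 minus Day_1 and 5.03 ± 0.08 for Day_2 minus Undiff. The last is 32.7-fold on the linear scale, and 0.0099% of all genes, Dcn among them, differed by as much. Shares of this kind, here and below, describe the rank of Dcn and Aspn and test nothing, because both were selected for strong changes. Dcn lay at percentile 35.0 of genes at Undiff, 76.8 at Day_1 and 97.7 at Day_2.

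Aspn, which has an aspartate stretch near its amino end and lacks the chain attachment site of decorin, took another course. Its log2 level was 8.05 and 7.64 at Undiff, 7.16 and 7.28 at Day_1, and 9.47 and 9.34 at Day_2. The Day_1 arrays were the lowest and the Day_2 arrays the highest, with no overlap. Day_1 minus Undiff was -0.62 ± 0.16 and Day_2 minus Day_1 was 2.19 ± 0.16. Day_2 minus Undiff was 1.56 ± 0.16 log2, and 0.703% of genes differed by as much.

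**Figure D1:**
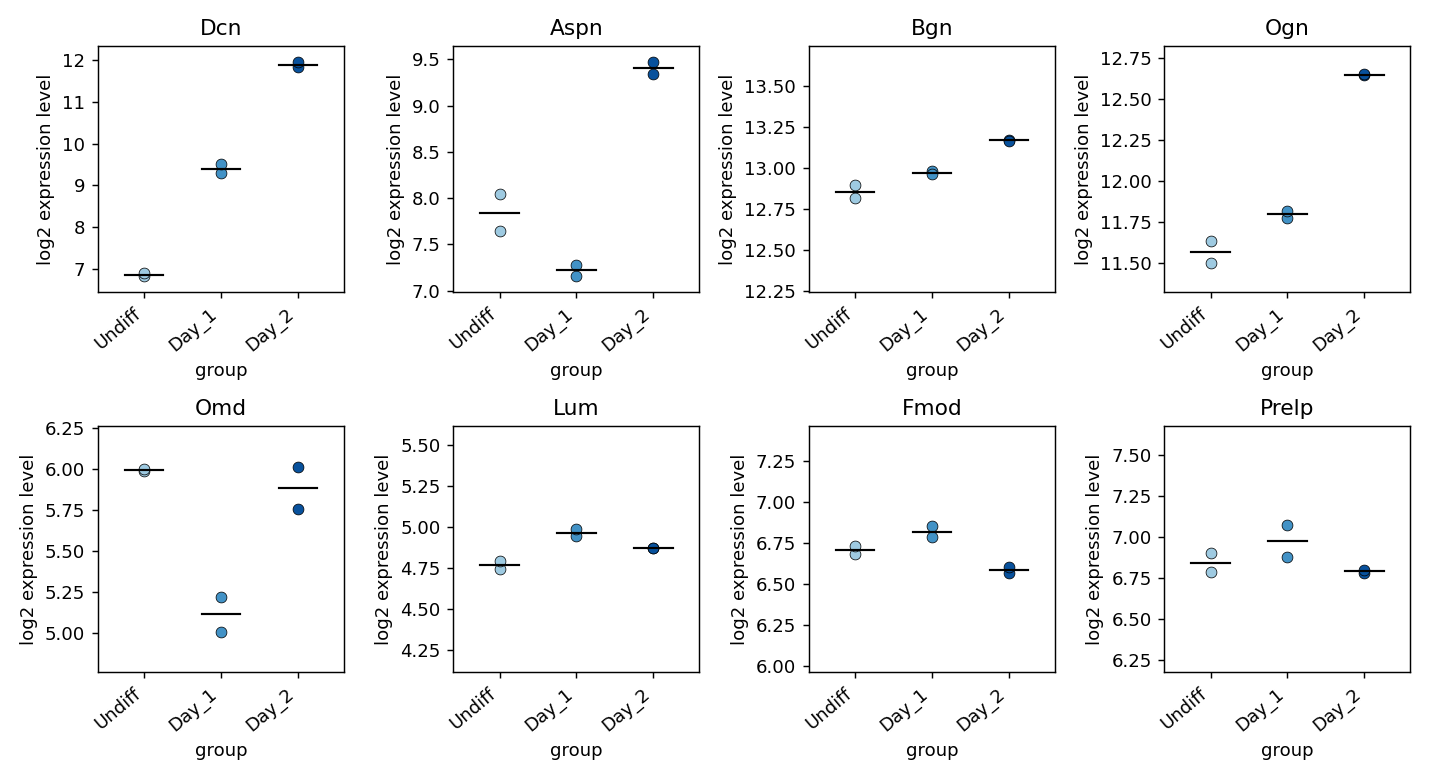
Log2 expression level (y axis, scale differs by panel) of the 8 genes on each array of untransfected C2C12 cells at Undiff, Day_1 and Day_2. Points are arrays (2 per group), and bars are group means. Dcn and Ogn are higher on each later day, whereas Aspn and Omd are lowest at Day_1.

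Biglycan and osteoglycin, both abundant, were higher at Day_2 than at Undiff. The log2 level of Ogn was 11.64 and 11.50 at Undiff, 11.78 and 11.82 at Day_1, and 12.65 and 12.65 at Day_2. The second Undiff value is a rounded cell of the deposited sheet, as is that of Omd below. Ogn was 1.08 ± 0.06 log2 (2.12-fold) higher at Day_2 than at Undiff (adjusted p = 2.56e-07), with 0.85 ± 0.06 of it between Day_1 and Day_2 (adjusted p = 1.02e-06). Bgn had 12.90 and 12.82 at Undiff, 12.98 and 12.96 at Day_1, and 13.17 and 13.17 at Day_2. Its difference was 0.31 ± 0.07 log2 (1.24-fold) for Day_2 minus Undiff (adjusted p = 0.00456), with no overlap between groups.

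Omd, a keratan sulfate proteoglycan of bone, fell at Day_1 and was back near its starting level at Day_2. Its log2 level was 5.99 and 6.0 at Undiff, 5.22 and 5.01 at Day_1, and 5.75 and 6.02 at Day_2. Omd differed by -0.88 ± 0.09 log2 for Day_1 minus Undiff (adjusted p = 1.28e-05) and by 0.77 ± 0.09 for Day_2 minus Day_1 (adjusted p = 4.28e-05). Day_2 and Undiff overlapped, and their difference of -0.11 ± 0.09 did not pass the test (adjusted p = 0.458).

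Lum, Fmod and Prelp, the other class II members, were not called for Day_2 against Undiff. For Day_2 minus Undiff, Lum differed by 0.10 ± 0.07 log2 (adjusted p = 0.316), Fmod by -0.12 ± 0.10 (adjusted p = 0.430) and Prelp by -0.05 ± 0.07 (adjusted p = 0.685). The 95% intervals reached from -0.04 to 0.25 for Lum, -0.34 to 0.09 for Fmod and -0.22 to 0.11 for Prelp. In all, 2 of the 6 tested members were called for Day_2 against Undiff, both higher, where 29.9% of all genes were called and 14.8% were called higher. Their median difference was 0.0238 log2, beside -0.0324 over all genes.

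For Day_1 against Undiff, 3 of 6 were called (Omd lower, Ogn and Lum higher), where 48.1% of all genes were called. The median of all genes was 0.109 log2 higher at Day_1, so the rises of Ogn (0.23 ± 0.06, adjusted p = 0.0100) and Lum (0.20 ± 0.07, adjusted p = 0.0311) are to be read beside that shift. Lum lost its call without any 1 of the Undiff or Day_1 arrays (adjusted p = 0.0572 to 0.155), with quantile normalization (0.078 log2, adjusted p = 0.389), with an intensity trend in the variance (adjusted p = 0.114) and with only the arrays compared (adjusted p = 0.0506). Ogn lost it without the second Undiff array (0.16 log2, adjusted p = 0.0798) or the second Day_1 array (0.21, adjusted p = 0.0606). For Day_2 against Day_1, 3 of 6 were called, all higher (Ogn, Omd and Bgn), where 53.6% of genes were called and 21.1% were called higher, with a median of -0.121 over all genes. Bgn was 0.20 ± 0.07 higher there (adjusted p = 0.0336) and lost its call without any 1 of the Day_1 or Day_2 arrays (adjusted p = 0.0768 to 0.122), with centring on the 75th percentile (0.061 log2, adjusted p = 0.458) and with all transcript clusters (adjusted p = 0.0515). The 3 time-course comparisons share arrays, and Fmod and Prelp at Day_2 against Day_1 were -0.23 ± 0.10 (adjusted p = 0.0622) and -0.18 ± 0.07 (adjusted p = 0.0570).

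Setting siMyolinc against siScr asks which genes differ at day 2 when Myolinc is targeted. Dcn had a log2 level of 8.62 and 8.62 with siMyolinc.1, 9.79 and 9.81 with siMyolinc.2, and 9.02 and 8.91 with siMyolinc.3, against 10.17 and 10.34 with siScr. Every siMyolinc array lay below both siScr arrays, and the siMyolinc.2 arrays lay nearest to them. The mean of the 3 siRNAs was -1.13 ± 0.07 log2 from siScr (2.18-fold lower), and 0.223% of genes differed by as much. The differences were -1.63 ± 0.08 for siMyolinc.1, -0.46 ± 0.08 for siMyolinc.2 and -1.29 ± 0.08 for siMyolinc.3. Without siMyolinc.2 the mean was -1.46.

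Aspn was low in all transfected cells. Its log2 level was 5.09 and 5.23 with siMyolinc.1, 5.18 and 5.11 with siMyolinc.2, and 5.23 and 5.37 with siMyolinc.3, against 5.27 and 5.37 with siScr. The groups overlapped, and the siMyolinc mean was -0.12 ± 0.07 log2 from siScr. Aspn lay at percentile 15.5 of genes over the siMyolinc arrays and at 16.9 in siScr, where its signal may hold little beyond background.

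**Figure D2:**
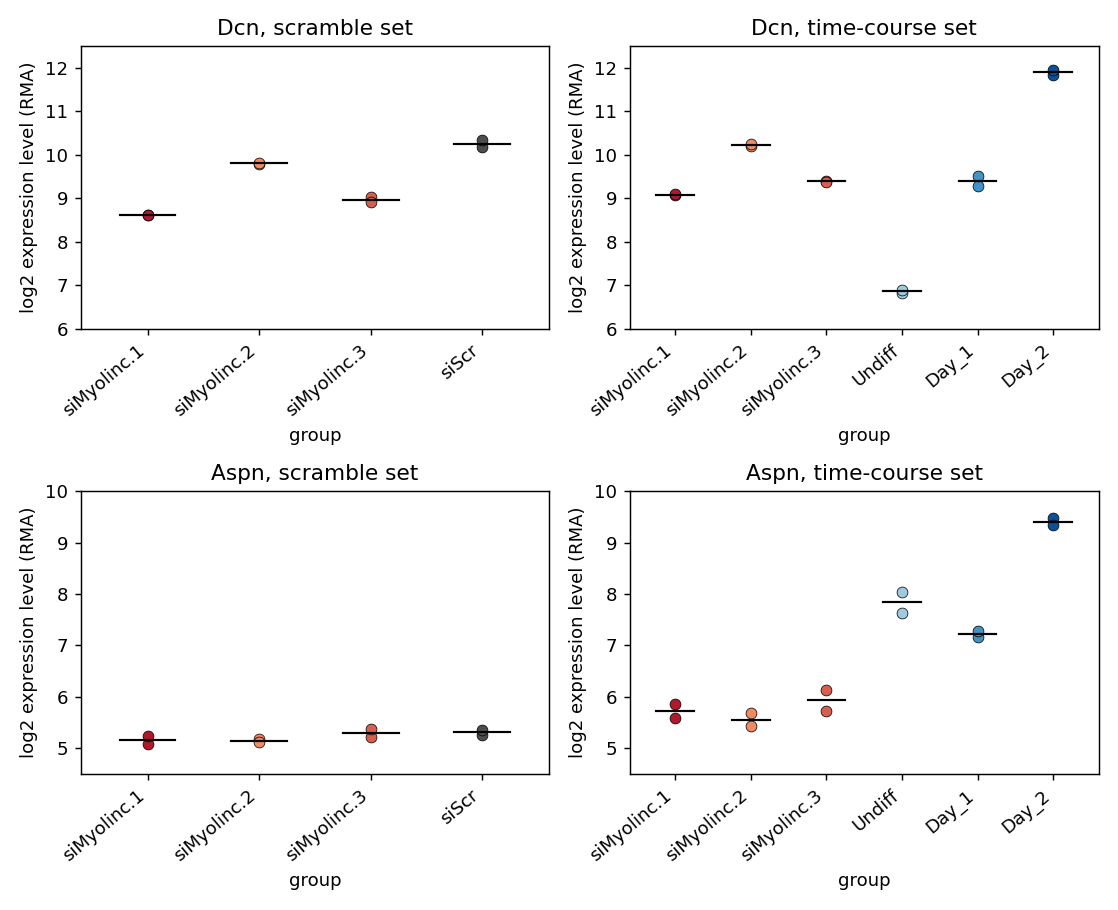
Log2 expression level (y axis) of Dcn and Aspn on each array of the scramble set and the time-course set. Points are arrays (2 per group) and bars are group means, and levels are comparable only within a set. In the scramble set Dcn lies at 8.62 to 9.81 with siMyolinc and at 10.17 and 10.34 with siScr, and Aspn is near 5 with both. In the time-course set Aspn lies at 5.43 to 6.14 with siMyolinc and reaches 9.47 at Day_2.

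Of the 6 tested members, 2 fell with siMyolinc and none rose, where 9.09% of all genes were called and 5.45% were called lower. At an unadjusted p under 0.05, limma counted 4 lower and 0 higher. The median difference of the 6 was -0.229 log2, beside -0.0114 over all genes. The siMyolinc arrays of Bgn had 12.56 as the lowest value, 12.70 as the median and 12.81 as the highest, against 13.03 and 13.03 in siScr. All 6 lay below siScr, by -0.33 ± 0.06 log2 (1.26-fold, adjusted p = 0.0125). The call was lost without either siScr array (adjusted p = 0.0710 and 0.0857), with the difference kept at -0.33.

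Ogn also fell, less firmly. Its level was 11.53, 11.83 and 12.004 (lowest, median and highest of 6) with siMyolinc, against 11.94 and 12.24 with siScr. The groups overlapped, and the difference was -0.31 ± 0.08 log2 (1.24-fold, adjusted p = 0.0408). That call held in 1 of 8 fits that each left out 1 array. Without the second siScr array the difference was -0.16 (adjusted p = 0.287), and without any 1 siMyolinc array adjusted p ran between 0.0627 and 0.0933. With the 6 siMyolinc arrays as 1 group, which adds the spread between siRNAs to the error, it was 0.305. In the authors' deposited table the unadjusted p of Ogn for this comparison is 0.0738.

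Omd, at 4.53, 4.64 and 4.80 (lowest, median and highest of 6) with siMyolinc and at 5.08 and 4.81 with siScr, differed by -0.29 ± 0.08 log2 and did not pass the test (adjusted p = 0.0655). All its siMyolinc arrays lay below siScr, but the highest of them (4.803) and the lower siScr array (4.805) were nearly equal. It passed when the replicate number was a block (adjusted p = 0.0476), with quantile normalization (adjusted p = 0.0495), without siMyolinc.2 (-0.35, adjusted p = 0.0279) and without the second siScr array (-0.43, adjusted p = 0.0383). Without the first siScr array it was -0.15 (adjusted p = 0.4). Lum differed by -0.17 ± 0.06 (adjusted p = 0.112), Fmod by 0.02 ± 0.07 (adjusted p = 0.909) and Prelp by 0.08 ± 0.06 (adjusted p = 0.454). The 95% interval of Fmod ran from -0.14 to 0.19 log2.

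Each siRNA was also set against siScr by itself. With siMyolinc.1, 2 of 6 members fell, Bgn at -0.34 ± 0.08 (adjusted p = 0.0251) and Ogn at -0.56 ± 0.10 (adjusted p = 0.00567), where 11.3% of genes were called and 7.13% were called lower. Bgn lost that call without either siScr array (adjusted p = 0.0795 and 0.0954) or either siMyolinc.1 array (0.133 and 0.122). With siMyolinc.3, 1 of 6 fell, Omd at -0.38 ± 0.10 (adjusted p = 0.0497), where 9.11% were called and 5.43% were called lower. Omd kept its call in 1 of 8 fits that each left out 1 array, with adjusted p = 0.0603 to 0.207 in the others, and was -0.24 without the first siScr array. With siMyolinc.2, 0 of 6 were called by limma (1 at an unadjusted p under 0.05), where 1.35% of genes were called. Bgn differed there by -0.39 ± 0.08 (adjusted p = 0.0562), Ogn by -0.10 ± 0.10 (adjusted p = 0.849) and Omd by -0.16 ± 0.10 (adjusted p = 0.719).

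The difference among the 3 siRNAs was itself tested with limma's F test, in which 0 of 6 members were called (2 at an unadjusted p under 0.05) and 4.04% of all genes were. The smallest adjusted p-values were those of Ogn (0.0619) and Prelp (0.0638). The difference of Ogn was -0.46 log2 for siMyolinc.1 minus siMyolinc.2. Prelp had 6.33 and 6.42 with siMyolinc.1, 6.05 and 6.07 with siMyolinc.2 and 6.32 and 6.33 with siMyolinc.3, against 6.20 and 6.15 with siScr. Prelp was thus above siScr with siMyolinc.1 and siMyolinc.3 and below it with siMyolinc.2, by -0.11 ± 0.07. Without either siScr array the F test called Ogn (adjusted p = 0.0190).

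**Figure D3:**
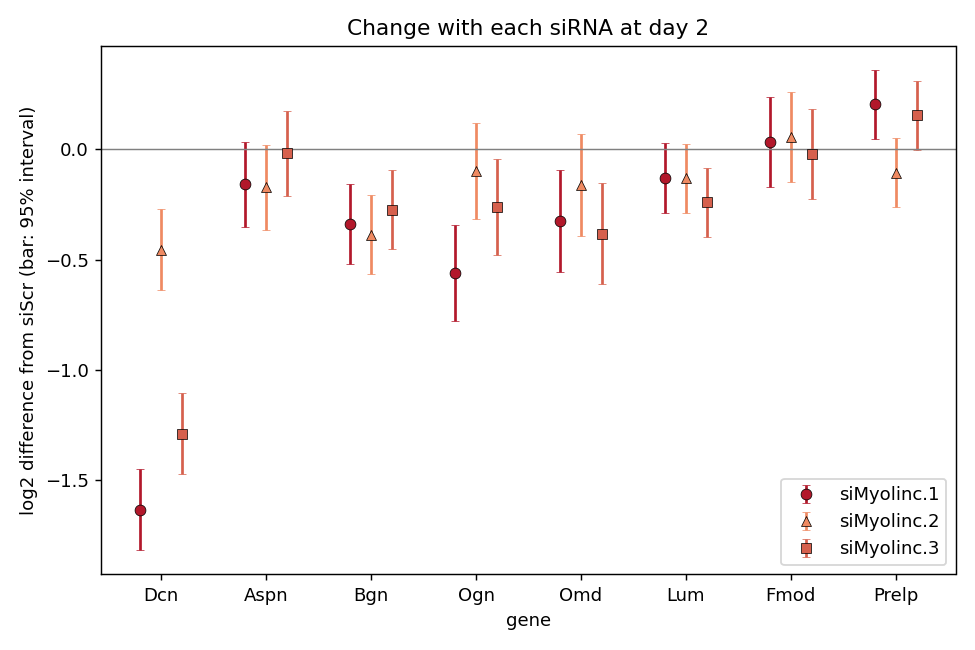
Log2 difference from siScr (y axis) of the 8 genes with siMyolinc.1, siMyolinc.2 and siMyolinc.3 at day 2. Points are limma estimates from 2 arrays against 2, and bars are 95% intervals. Dcn and Aspn were selected for their changes, so their intervals are a description and not a test. Dcn is at -1.63, -0.46 and -1.29, and Bgn lies between -0.39 and -0.27.

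The summed signal of myoblast and myotube markers, like the level of Dcn, was below siScr with each siRNA. The summed linear signal of 12 myoblast and myotube markers was 4184 to 4298 with siMyolinc.1, 7095 to 7168 with siMyolinc.2 and 4343 to 4446 with siMyolinc.3, against 8088 to 8707 with siScr, and 9 of the 12 were called lower for the siMyolinc mean (75% called, beside 9.09% of all genes). That of 13 fibroblast and tendon markers was 2558 to 2566, 4822 to 4974 and 2870 to 3037 with siMyolinc.1, siMyolinc.2 and siMyolinc.3, against 4293 to 4405 with siScr, and 3 of 13 were called lower (Cd34, Pdgfrb and Ly6a, 23.1%). With the 6 siMyolinc arrays as 1 group Cd34 and Ly6a lost that call (adjusted p = 0.262 and 0.634). Dpt, Tnmd and Fap of that list lay in the lowest 25% of genes on every array of the scramble set. The siMyolinc.2 arrays were nearest to siScr in the myotube sum and above siScr in the fibroblast sum. A linear sum follows its brightest genes. With siMyolinc.2, 1 of the 13 fibroblast and tendon markers was called lower and 0 higher (7.69%, beside 1.35% of all genes). The median difference of the 13 was -0.0746 log2. Of the other lists, 1 of 9 bone and cartilage markers (Runx2, 11.1%) and 2 of 6 macrophage markers (Cd68 and Cd14, 33.3%) were called higher than siScr, and 0 of 6 adipocyte and 0 of 5 endothelial markers were called (1 and 0 at an unadjusted p under 0.05 in limma). Runx2 lost its call without either siScr array (adjusted p = 0.210 and 0.0701), without any 1 siMyolinc.1 or siMyolinc.2 array (0.0647 to 0.0759) and with the 6 arrays as 1 group (0.178), and Cd14 lost it without the second siScr array (0.151). The part of these cells in the values of Dcn was not tested.

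Set against untransfected Day_2 cells, the same siMyolinc arrays gave another picture for Aspn. This comparison has no scramble control, so transfection and knockdown cannot be told apart, and it shares the siMyolinc arrays with the one above. Aspn had a log2 level of 5.43 as the lowest, 5.70 as the median and 6.14 as the highest of the 6 siMyolinc arrays, against 9.47 and 9.34 in Day_2. All siMyolinc arrays lay below the Day_2, Day_1 and Undiff arrays. The difference from Day_2 was -3.67 ± 0.13 log2 (12.7-fold lower), and 0.0594% of genes differed by as much, whereas the difference from siScr was -0.12 ± 0.07.

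Dcn had 9.07, 9.39 and 10.24 (lowest, median and highest of 6) with siMyolinc, against 11.82 and 11.96 in Day_2, a difference of -2.33 ± 0.06 log2 (5.02-fold lower). That placed the siMyolinc arrays around Day_1 (9.29 and 9.51) and above Undiff (6.83 and 6.89). Among the 6 tested members 3 fell and none rose, where 38.1% of genes were called and 18.9% were called lower. At an unadjusted p under 0.05, limma counted 3 lower and 1 higher. The median of the 6 was -0.205, beside 0.045 over all genes.

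Ogn had 11.71, 11.98 and 12.14 with siMyolinc, against 12.65 and 12.65 in Day_2 (-0.71 ± 0.05, adjusted p = 4.73e-07). Omd had 5.06, 5.14 and 5.35 with siMyolinc, against 5.75 and 6.02 in Day_2 (-0.70 ± 0.07, adjusted p = 1.31e-05), close to its Day_1 level of 5.22 and 5.01. Bgn had 12.68, 12.77 and 12.90 with siMyolinc, against 13.17 and 13.17 in Day_2 (-0.39 ± 0.06, adjusted p = 0.000172). In these 3 genes no siMyolinc array overlapped Day_2. How many of all genes separate in this way was not counted, and 38.1% of all genes were called. Prelp was 0.14 ± 0.06 from Day_2 (adjusted p = 0.0925), Fmod 0.02 ± 0.08 (adjusted p = 0.873) and Lum -0.02 ± 0.05 (adjusted p = 0.790), and none of the 3 passed the test.

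**Figure D4:**
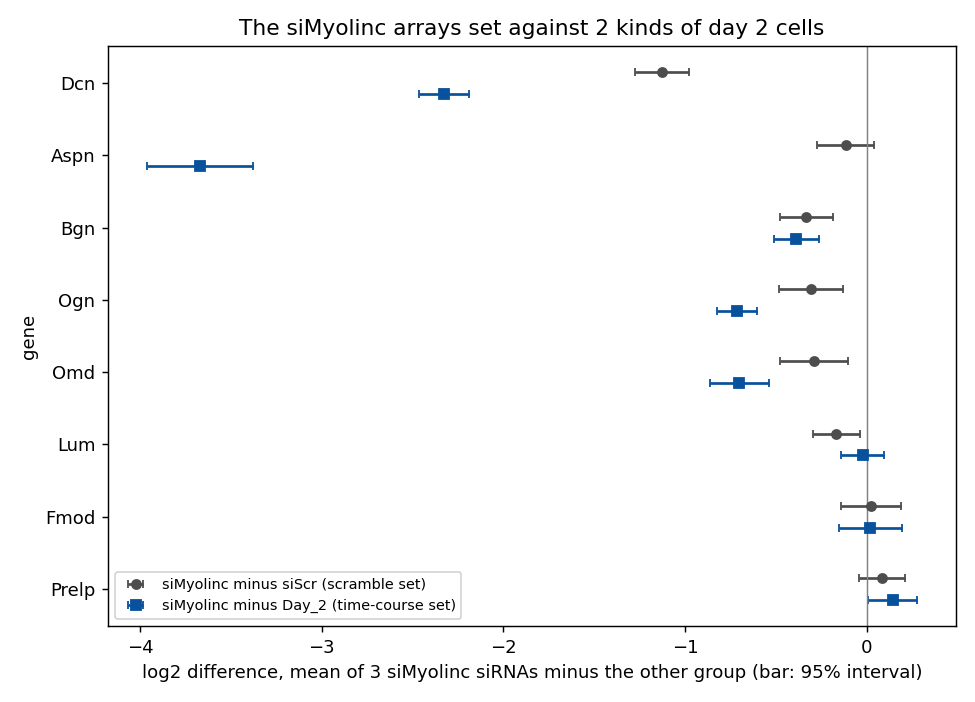
Log2 difference (x axis) of the mean of the 3 siMyolinc siRNAs from siScr (circles, scramble set) and from untransfected Day_2 cells (squares, time-course set) for the 8 genes, with 95% intervals. Both use the same 6 siMyolinc hybridisations. The intervals of Dcn and Aspn are a description and not a test, since these genes were selected for their changes. Aspn is at -3.67 from Day_2 and at -0.12 from siScr, whereas Bgn is at -0.39 and -0.33.

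In the time-course set the fibroblast and tendon marker sum was 3386 to 6373 over the siMyolinc arrays, against 12900 to 12910 at Undiff, 5810 to 5931 at Day_1 and 13290 to 13690 at Day_2. By siRNA it was 3386 to 3464 with siMyolinc.1, 5998 to 6373 with siMyolinc.2 and 3880 to 4045 with siMyolinc.3. Of its 13 genes 5 were called lower with siMyolinc than in Day_2 (38.5%, beside 38.1% of all genes called), among them Cd34 (-2.88 ± 0.08, adjusted p = 3.07e-10) and Ly6a (-2.13 ± 0.06, adjusted p = 3.19e-10). The myoblast and myotube sum was 4846 to 8035 with siMyolinc, against 11310 to 11410 at Undiff, 7412 to 7921 at Day_1 and 21080 to 21400 at Day_2. That sum was thus lower at Day_1 than at Undiff, where Dcn was higher at Day_1. A linear sum follows its brightest genes, and for Day_1 against Undiff 7 of the 12 markers were called higher and 4 lower. Their median was 0.411 log2 (91.7% called, beside 48.1% of all genes). The part of either cell type in the Aspn and Dcn values was not tested.

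Aspn lies in a row of leucine-rich repeat genes. In RefSeq's mouse annotation, Ecm2, Aspn, Omd and Ogn follow each other on chromosome 13 with no other protein-coding gene between them, Dcn and Lum are neighbours on chromosome 10, Prelp and Fmod on chromosome 1, and Bgn is on chromosome X. Ecm2, an extracellular matrix protein with leucine-rich repeats, belonged to a list of 11 further family genes. Its log2 level was 5.70 and 5.76 at Undiff, 5.23 and 5.12 at Day_1, and 7.21 and 6.96 at Day_2. Like that of Aspn, it was lowest at Day_1 and highest at Day_2. Ecm2 was 1.36 ± 0.10 log2 higher at Day_2 than at Undiff (adjusted p = 1.49e-06) and -1.81 ± 0.08 with siMyolinc against Day_2 (adjusted p = 1.07e-08). Against siScr it was 0.02 ± 0.06 (adjusted p = 0.883), at a level of 4.44 to 4.63 with siMyolinc and 4.49 and 4.62 with siScr, at percentiles 7.71 and 9.28 of genes in siScr. Lum, next to Dcn, differed by 0.10 ± 0.07 for Day_2 minus Undiff, where Dcn differed by 5.03 ± 0.08.

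**Figure D5:**
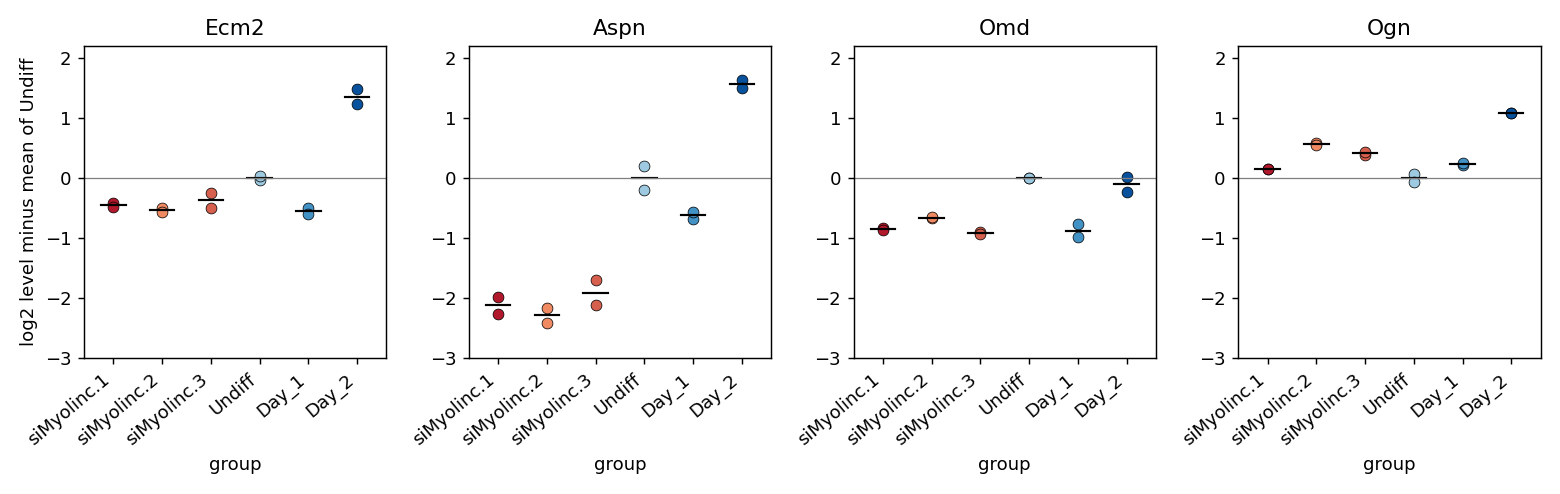
Log2 level minus the mean of Undiff (y axis) for Ecm2, Aspn, Omd and Ogn, in their order along chromosome 13, on each array of the time-course set. Points are arrays (2 per group) and bars are group means. Ecm2 and Aspn share a peak at Day_2 that the siMyolinc arrays lack, Omd ends near its Undiff level, and Ogn is above Undiff in every other group.

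The promoters of these 4 neighbours are shown because the genes differ in course although they are adjacent. Each run holds 250 bases before and 50 after the gene's start, from RefSeq on GRCm38.p6, on the + strand. They lie at chr13:49504560-49504859 (Ecm2), chr13:49544193-49544492 (Aspn), chr13:49582212-49582511 (Omd) and chr13:49607765-49608064 (Ogn). Of the 8 members 6 had a promoter entry. Capitals mark CANNTG, the E-box that muscle regulators of the MyoD family can bind, which reads the same on both strands.
Ecm2: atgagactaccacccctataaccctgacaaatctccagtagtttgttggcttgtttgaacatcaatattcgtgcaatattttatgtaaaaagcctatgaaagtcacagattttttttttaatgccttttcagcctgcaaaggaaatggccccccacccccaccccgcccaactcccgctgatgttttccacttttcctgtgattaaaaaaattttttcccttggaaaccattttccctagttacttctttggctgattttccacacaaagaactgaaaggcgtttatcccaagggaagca
Aspn: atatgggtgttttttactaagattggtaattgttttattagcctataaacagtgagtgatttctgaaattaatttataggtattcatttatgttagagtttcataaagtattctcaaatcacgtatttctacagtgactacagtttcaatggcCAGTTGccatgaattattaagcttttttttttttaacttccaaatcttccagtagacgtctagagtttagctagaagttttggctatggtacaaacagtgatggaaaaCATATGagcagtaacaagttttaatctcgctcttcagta
Omd: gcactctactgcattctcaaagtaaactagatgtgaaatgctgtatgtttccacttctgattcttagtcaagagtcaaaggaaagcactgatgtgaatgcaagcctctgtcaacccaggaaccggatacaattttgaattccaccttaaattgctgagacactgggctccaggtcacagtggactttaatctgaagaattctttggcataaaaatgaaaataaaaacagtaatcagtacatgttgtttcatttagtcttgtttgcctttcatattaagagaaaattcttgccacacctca
Ogn: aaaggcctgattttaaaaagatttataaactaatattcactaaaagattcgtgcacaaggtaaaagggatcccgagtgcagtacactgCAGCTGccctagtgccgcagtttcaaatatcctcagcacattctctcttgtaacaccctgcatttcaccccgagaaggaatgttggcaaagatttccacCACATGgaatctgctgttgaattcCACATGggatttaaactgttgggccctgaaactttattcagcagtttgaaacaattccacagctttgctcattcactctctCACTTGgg

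CANNTG matched 2 times in the Aspn window and 4 times in the Ogn window, and 0 times in those of Ecm2 and Omd. Of 32851 mouse promoter windows of this length, 72.3% held at least 1 match, 39.6% at least 2 and 6.49% at least 4. The form CAGCTG, which is one of the CANNTG matches, was found in Ogn alone of the 4 and in 16.3% of windows. TATAAA, searched on both strands, matched 2 times each in Aspn and Ogn and in 13.6% of windows. The windows of Ecm2 and Aspn thus differed in these matches.

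Of the 11 further family genes, 3 were called for siMyolinc against siScr, 27.3% beside 9.09% of all genes. Podnl1, podocan-like 1 of class V, was -0.37 ± 0.07 (adjusted p = 0.00917), with all siMyolinc arrays (6.86 to 7.12) below siScr (7.32 and 7.45). Nyx, nyctalopin of class IV, was 0.54 ± 0.11 (adjusted p = 0.0144), with 6.40 to 6.77 on siMyolinc arrays, against 6.33 and 5.87 on siScr arrays. Tsku, tsukushi of class IV, was 0.25 ± 0.06 (adjusted p = 0.0375). Without the second siScr array none of these calls held (Podnl1 at -0.31, adjusted p = 0.0993, Nyx at 0.31, 0.0994, and Tsku at 0.32, 0.0614), nor with the 6 siMyolinc arrays as 1 group (adjusted p = 0.0514, 0.0623 and 0.332). The call of Tsku also ended without the first siScr array (0.18, adjusted p = 0.228), with array weights (0.0576), with the replicate number as a block (0.0520) and without any 1 of 5 of the 6 siMyolinc arrays (0.0547 to 0.0992).

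Against Day_2, 6 of the 11 were called, 3 in each direction (54.5% beside 38.1% of all genes). Podnl1 had 7.52 to 7.79 with siMyolinc, against 9.35 and 9.15 in Day_2 (-1.58 ± 0.06, adjusted p = 5.14e-09). Over the days it differed by -1.45 ± 0.08 for Day_1 minus Undiff (adjusted p = 7.72e-08) and by 1.05 ± 0.08 for Day_2 minus Day_1 (adjusted p = 1.36e-06). Nyx was 1.05 ± 0.09 higher with siMyolinc than in Day_2 (adjusted p = 2.60e-06). For Day_2 against Undiff 3 of the 11 were called, Ecm2 higher and Podnl1 (-0.40 ± 0.08, adjusted p = 0.00241) and Tsku (-0.35 ± 0.06, adjusted p = 0.00108) lower, which is 27.3% beside 29.9%.

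Of 18 measured collagens and other fibril proteins that the family binds, 6 fell with siMyolinc against siScr, none was called higher and 12 did not pass the test (33.3% beside 9.09%, with 1 higher at an unadjusted p under 0.05 in limma), with a median of -0.132 log2. They include Col1a1 (-0.95 ± 0.07, adjusted p = 5.19e-05) and Col1a2 (-0.94 ± 0.06, adjusted p = 5.16e-05), the chains of type I collagen. With siMyolinc.2 alone, Col5a2, a type V collagen chain, was 0.59 ± 0.08 above siScr (adjusted p = 0.00735), and 2 of the 18 were called lower. Calls in either direction made 16.7% of the list there, beside 1.35% of all genes. Against Day_2, 11 were lower and 2 higher (72.2% beside 38.1%), among them Lox, which crosslinks collagen (-1.58 ± 0.06, adjusted p = 3.94e-09), and Col6a1 (-1.50 ± 0.05, adjusted p = 1.98e-09). For Day_2 against Undiff, 4 were higher and 5 lower (50% beside 29.9%), with Col3a1 at 0.92 ± 0.08 (adjusted p = 3.99e-06).

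Of 11 proteases and their cofactors that process the family, 6 were lower and 1 was higher than siScr (63.6% beside 9.09%). Adamts4, an aggrecanase, was -0.84 ± 0.08 (adjusted p = 0.000223), and the collagenase Mmp13 was 2.12 ± 0.13 (adjusted p = 4.02e-05). Bmp1, which removes the propeptides of biglycan and osteoglycin, was -1.74 ± 0.05 against Day_2 (adjusted p = 3.57e-10). For Day_2 against Undiff 6 of the 11 were higher and none lower (0 lower at an unadjusted p under 0.05, with limma), which is 54.5% beside 29.9% of all genes called and 14.8% called higher, with Adamts5 at 1.90 ± 0.06 (adjusted p = 3.47e-09) and Mmp2, a gelatinase, at 1.46 ± 0.07 (adjusted p = 8.49e-08).

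Of 16 growth factors and receptors that bind family members, 5 were lower and 1 was higher than siScr (37.5% beside 9.09%). Wisp1, a CCN family protein, was -0.79 ± 0.06 (adjusted p = 8.72e-05) and Egfr, a receptor that decorin binds, was -0.50 ± 0.07 (adjusted p = 0.00287). Ctgf, another CCN protein, was -3.27 ± 0.09 for Day_1 minus Undiff (adjusted p = 1.01e-09) and 2.93 ± 0.09 for Day_2 minus Day_1 (adjusted p = 2.37e-09), so it was lowest at Day_1. Tgfb3 was also lowest at Day_1, at -1.48 ± 0.07 (adjusted p = 3.33e-08) and 1.86 ± 0.07 (adjusted p = 8.84e-09).

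Of 25 measured enzymes that build the sugar chains, 3 were lower and 2 higher than siScr (20.0% beside 9.09%). Chst12, a chondroitin sulfotransferase, was -0.42 ± 0.06 (adjusted p = 0.00383), and against Day_2 it was -1.13 ± 0.07 (adjusted p = 1.52e-07). Chst1, a keratan sulfate sulfotransferase, was -1.36 ± 0.09 for Day_2 minus Undiff (adjusted p = 6.58e-07), where 3 of 25 were higher and 5 lower (32.0% beside 29.9%). Of 22 other proteoglycans 2 were lower and 1 was higher than siScr (13.6% beside 9.09%), Hspg2 (perlecan) at -0.43 ± 0.06 (adjusted p = 0.00252) and Srgn (serglycin) at 0.42 ± 0.06 (adjusted p = 0.00263).

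The genes most like Dcn over the 12 arrays of the time-course set, among 2519 genes that span at least 1 log2 there, were Fcgrt (the neonatal Fc receptor, Pearson r = 0.992), Trp53inp2 (0.984), Colec12 (a scavenger receptor, 0.980), Tmem86a (0.976) and Me3 (mitochondrial malic enzyme, 0.974). Colec12 differed by 2.86 log2 for Day_2 minus Undiff, by -1.17 for siMyolinc minus Day_2 and by -0.69 for siMyolinc minus siScr. The genes most like Aspn were Rras (a small GTPase, r = 0.992), Col6a1 (0.986), Loxl1 (0.984), Tmsb10 (0.980) and Fam5c (0.972). Col6a1 differed by -1.50 for siMyolinc minus Day_2 and by -0.14 for siMyolinc minus siScr. Among the 8 members Dcn was most like Ogn (r = 0.922), Aspn was most like Bgn (0.873), and Dcn and Aspn had r = 0.25 with each other. These correlations describe 12 arrays in 6 pairs of replicates, 6 of them siMyolinc arrays, and the genes share those arrays.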

How the data were processed

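The deposited values are log2 expression levels per transcript cluster of Affymetrix arrays. Per the submitters' processing notes the authors used RMA and limma, of which no version is stated, and no annotation or genome build is named in the labels or headers. Each of 2 sheets lists 1 transcript cluster per gene symbol beside the authors' unadjusted p-values, per the file headers. The sets were summarised separately, with array medians of 6.93 to 6.97 log2 in the scramble set and 7.42 to 7.51 in the time-course set. After centring, siMyolinc arrays of equal label correlated at 0.933 to 0.949 between the sets and those of other labels at most at 0.289, so they were taken as the same hybridisations. Of a siMyolinc.3 array 23 cells, none of a member, were left out because they held day numbers, and 1728 cells of an Undiff array hold rounded values. The number of unused columns of sample values was 0.

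The deposited log2 values were fitted with limma 3.58.1 in R 4.3.3, with a coefficient for each group over the arrays of a set. P-values were two-sided and adjusted after Benjamini-Hochberg over all 20193 genes, and an adjusted p under 0.05 was a call. The siMyolinc mean weights the siRNAs equally, and its error is the spread between arrays within a siRNA. The median standard error was 0.071 log2 for that mean against siScr and 0.0801 between time-course groups. Precision is limited by how few arrays a group has. Alternatives were another scaling, a filter on dim genes, other variance models, all transcript clusters, the replicate number as a block, and each array left out.

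Members, lists and tests were chosen with earlier results of these data known. By rule the text names all members, up to 3 called genes of a list with the largest change, and the 5 genes most like Dcn and Aspn, and the examples among those were picked after their values were seen. Replicate numbers were not used to pair the arrays in the main fits. Deviations from group means correlated at -0.113 to 0.237 between groups compared. With 2 arrays per group, this cannot decide whether equally numbered arrays belong together. Gene order and promoters are from RefSeq (GRCm38.p6), matched by symbol.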

Additional observations from a re-analysis of the deposited data

Results flagged for a closer look

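Among the members and the 11 further family genes, the differences among the 3 siMyolinc siRNAs passed limma's F test for Tsku, which encodes tsukushi (adjusted p = 0.0424). Its log2 level was 8.65 and 8.66 with siMyolinc.1, 8.30 and 8.25 with siMyolinc.2 and 8.63 and 8.55 with siMyolinc.3, against 8.19 and 8.33 with siScr. It was 0.40 above siScr with siMyolinc.1, 0.02 with siMyolinc.2 and 0.33 with siMyolinc.3.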

How the results depend on the processing

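Each result was recomputed under alternative settings. For Day_2 against Undiff and for siMyolinc against Day_2, Bgn and Ogn (and Omd in the second) were called under every setting run, except that Omd was not tested where dim genes were left out, with 2 and 3 members called in each fit that left out 1 array. Of 296 recomputed values of Dcn and Aspn, the sign turned only in some of Aspn with siMyolinc.3 against siScr (-0.02 as reported, 0.019 with 75th percentile centring, -0.091 to 0.053 without 1 array), and 16 of the 296 moved by more than the spread between arrays. Of 978 values of the 6 tested members 873 kept direction and call. For the called list genes with the largest changes (up to 3 per list and comparison, without the per-siRNA comparisons) 2914 of 3047 did and none reversed. These genes were chosen as called and large, so that count does not describe whole lists.

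The count for siMyolinc against siScr, 2 of 6, was 1 with centring on the 75th percentile, array weights, all transcript clusters or the 6 siMyolinc arrays as 1 group, and 1 in every fit without 1 array (Ogn without the first siScr array, Omd without the second, Bgn in the others). It was 3 with the replicate block or without siMyolinc.2 (Bgn, Ogn and Omd), and with quantile normalization 2, Bgn and Omd. The call of Ogn ended in those fits without it (adjusted p = 0.0533 to 0.305). With siMyolinc.1 it was 1 with 75th percentile centring or all transcript clusters (1 to 2 without 1 array). With siMyolinc.2 it was 1 (Bgn) with quantile normalization, dim genes left out or an intensity trend (0 to 0 without 1 array). With siMyolinc.3 it was 0 with 75th percentile centring, array weights, the compared arrays alone or all clusters, and 2 with quantile normalization or an intensity trend (0 to 1 without 1 array). Among the siRNAs it was 2 with dim genes left out or array weights and 1 with an intensity trend or the compared arrays alone (0 to 1 without 1 array). For Day_1 against Undiff it was 6 with 75th percentile centring, where 70.3% of all genes were called, against 48.1%. With dim genes left out it was 1 of 4, where 61.8% of the genes kept were called. For Day_2 against Day_1 it was 5 with 75th percentile centring or array weights, where 69.4% and 59.3% of all genes were called, against 53.6%. The cause was not tested, except that centring moved the median change of all genes, to 0.26 log2 for Day_1 minus Undiff and to -0.256 for Day_2 minus Day_1. It also moved the share of calls that were higher, to 78.9% against 56.2% and to 21.2% against 39.4%, to 53.5% against 40.1% for siMyolinc against siScr (53.9% against 36.8% and 53.7% against 40.3% for siMyolinc.1 and siMyolinc.3), and to 60.5% against 50.5% for siMyolinc against Day_2. The share of all genes called for siMyolinc against siScr was 2.03% with the 6 arrays as 1 group, 3.8% with all clusters and 13.8% without siMyolinc.2, against 9.09%. With siMyolinc.2 alone the share was 1.5% with quantile normalization and 2.54% with an intensity trend, against 1.35%. With siMyolinc.3 alone it was 3.81% with all clusters and 12.8% with an intensity trend, against 9.11%.

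For the tested members, signs that turned belong to values near 0. Fmod with siMyolinc.3 was 0.018 (75th percentile) and 0.0091 (quantile normalization). With quantile normalization Fmod and Prelp were -0.045 and -0.024 for Day_1 minus Undiff, Lum was 0.044 for Day_2 minus Day_1 and Fmod -0.016 for siMyolinc minus Day_2, where Lum was 0.024 with 75th percentile centring. Without 1 array Fmod ran from -0.051 to 0.096 for siMyolinc minus siScr, -0.040 to 0.11, -0.030 to 0.14 and -0.094 to 0.053 for siMyolinc.1, siMyolinc.2 and siMyolinc.3, and -0.035 to 0.073 for siMyolinc minus Day_2. Ogn ran from -0.25 to 0.051 with siMyolinc.2, and for Day_2 minus Undiff Omd ran from -0.24 to 0.023 and Prelp from -0.11 to 0.0035.

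With the replicate number as a block, Omd passed for siMyolinc against siScr (adjusted p = 0.0476); the block moved no count by over 1.5 times (8.90% of all genes called, against 9.09%). Deviations of equally numbered arrays correlated at -0.113 for siMyolinc.3 and siScr and at -0.101 for Day_2 and Undiff, and with the numbers crossed, an alternative chosen after seeing the data, 0 and 2 members were called. Lum and Omd, and Ecm2 and Aspn in transfected cells, lie low in the signal range, which limits what their differences can show.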
